A study of Mus musculus with 8 samples.

Results

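The peaks described here are those nearest to the centromeres: autosomal ATAC-seq peaks whose summit lies at mm10 positions 3000000 to 6000000, the first 3 Mb of assembled sequence on chromosomes 1 to 19. Position alone chose them, after several summits of 1 interval had been reduced to the one of highest −log10 p. They number 14925 of 647290 autosomal peaks over 8 libraries. The libraries come from neurons of the amygdala, isolated with a magnetic kit, of male C57BL/6J mice whose age the labels do not give. AAV carrying a guide against Rosa26 (sgRosa, the control, n = 4) or against Nr2f2 (sgNr2f2, n = 4) was injected into the amygdala. All the mice then went through tube restraint on 7 days, fear conditioning on 1 day and extinction training on 3 days, so no unstressed group enters. Each library was taken as 1 mouse, and the labels name neither the promoter that drives the guide nor the source of the nuclease.

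Mouse autosomes are acrocentric: the centromere sits close to one end, on long arrays of satellite repeats that the assembly represents by a placeholder. The first assembled bases border this pericentromeric heterochromatin, which is packed by histone H3 lysine 9 methylation and HP1 proteins and is gathered into large foci in the nuclei of mouse neurons. ATAC-seq uses the transposase Tn5, which cuts and tags DNA where it can reach it, and a peak is a stretch cut more often than its surroundings. Nr2f2 encodes COUP-TFII, an orphan nuclear receptor that binds DNA. Rosa26 is a locus used as a neutral target.

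The promoters of 4 genes of the windows are printed because they span the range of recurrence among annotated start sites there, from all 8 libraries to 2. They run from 250 bases before to 50 after the start, 5′ to 3′ on the gene's strand, from RefSeq on GRCm38.p6. Capitals mark bases covered by peaks of 2 or more libraries. LOC115490388, a long noncoding RNA gene, lies at chr6:3182866-3183165 on the plus strand. Cdnf, which encodes a neurotrophic factor for dopamine neurons, lies at chr2:3512815-3513114 on the plus strand and shares the stretch with the divergent Hspa14, an Hsp70 family member. Kmt5c, whose product methylates histone H4 lysine 20 in pericentromeric heterochromatin, lies at chr7:4739877-4740176 on the plus strand. Kif3c, a kinesin motor gene, lies at chr12:3364882-3365181 on the plus strand and was named here with its values in view.
LOC115490388: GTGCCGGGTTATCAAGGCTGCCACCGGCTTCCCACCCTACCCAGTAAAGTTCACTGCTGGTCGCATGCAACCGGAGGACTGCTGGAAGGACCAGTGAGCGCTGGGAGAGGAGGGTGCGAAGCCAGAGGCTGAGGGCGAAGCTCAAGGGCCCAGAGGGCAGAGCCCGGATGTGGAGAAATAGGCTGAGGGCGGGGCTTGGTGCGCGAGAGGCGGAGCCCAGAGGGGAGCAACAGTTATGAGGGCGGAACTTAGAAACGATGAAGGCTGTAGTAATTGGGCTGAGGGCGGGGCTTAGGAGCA
Cdnf: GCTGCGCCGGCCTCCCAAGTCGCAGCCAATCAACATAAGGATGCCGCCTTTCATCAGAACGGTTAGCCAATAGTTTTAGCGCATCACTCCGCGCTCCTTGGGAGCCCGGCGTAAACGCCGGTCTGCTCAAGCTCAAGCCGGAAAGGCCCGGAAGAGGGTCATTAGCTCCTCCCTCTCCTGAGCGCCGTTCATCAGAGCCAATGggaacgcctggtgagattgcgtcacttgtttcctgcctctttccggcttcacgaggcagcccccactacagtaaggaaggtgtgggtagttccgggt
Kmt5c: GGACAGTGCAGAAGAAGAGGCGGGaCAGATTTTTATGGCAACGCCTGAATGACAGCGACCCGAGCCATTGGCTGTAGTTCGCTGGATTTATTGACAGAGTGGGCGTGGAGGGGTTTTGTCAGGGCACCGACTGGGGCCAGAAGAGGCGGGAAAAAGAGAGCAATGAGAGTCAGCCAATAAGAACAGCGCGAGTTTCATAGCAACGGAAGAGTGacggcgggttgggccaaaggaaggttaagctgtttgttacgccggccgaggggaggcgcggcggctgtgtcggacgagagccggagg
Kif3c: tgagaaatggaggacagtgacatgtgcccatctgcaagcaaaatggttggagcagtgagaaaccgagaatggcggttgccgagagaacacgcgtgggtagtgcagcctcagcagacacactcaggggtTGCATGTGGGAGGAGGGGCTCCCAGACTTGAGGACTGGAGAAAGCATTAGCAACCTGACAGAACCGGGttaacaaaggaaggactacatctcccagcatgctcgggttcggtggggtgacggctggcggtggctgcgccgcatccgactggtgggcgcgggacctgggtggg

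The LOC115490388 promoter was covered by a peak in 8 of 8 libraries, and all 300 of its bases were covered in at least 2. The region over it, chr6:3182536-3184137, had a −log10 p of 12.7, 9.25, 12.5 and 10.6 in sgRosa 1 to 4 and of 16.9, 9.97, 22.9 and 13.5 in sgNr2f2 1 to 4. The highest value was in sgNr2f2 3 and the groups overlapped. Each value is the best of the library anywhere in this merged region of 1602 bp. Its strongest summit, at position 3183833, lies past the printed promoter, so the values need not be those of the promoter itself. The Cdnf stretch carried a peak in sgRosa 1, sgRosa 3 and sgNr2f2 3, and the Kmt5c stretch in sgRosa 2, sgNr2f2 2 and sgNr2f2 4. The Kif3c stretch carried one in sgNr2f2 3 and 4 only, which is 2 of 4 libraries against 0 of 4. Promoters of Mus81, Gm42369 and Gm36853 divided in the same way. Those of Nmt2, Meig1, Aasdhppt and Kbtbd3 divided in the opposite way, with 2 sgRosa and 0 sgNr2f2 libraries. How often other autosomal promoters divide in these ways was not counted, so the divisions are not read as differences between the groups.

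Annotated promoters of the windows were covered in at least 1 library about as often as others. Of 873 promoter entries, for 690 genes on the 18 chromosomes that the table covers, 124 had a peak in at least 1 equal-length list, 19 in 2 or more, 6 in 3 or more and 1 in all 8. These are 14.2%, 2.18%, 0.687% and 0.115% of the entries, beside 13.5%, 1.85%, 0.328% and 0.0164% of 30523 other autosomal entries. Letters of 3 motifs were searched on both strands: AGGTCA, a core element of nuclear receptor sites, GGGCGG, the GC box, and CCAAT, which names its own box. The element AGGTCA, in 16.3% of 31223 autosomal promoters, was in none of the 4 printed and 1 time in the promoter of Tsen34, a tRNA splicing enzyme, which like that of Cdnf was covered in 3 libraries. GGGCGG, in 36.1% of all, was found 3 times in the LOC115490388 promoter, 2 times in that of Tsen34, 1 time in that of Hspa14 and in none of the other 3 printed. CCAAT, in 37.2% of all, was found 1 time in the LOC115490388 promoter, 3 times in that of Cdnf, 2 times in that of Kmt5c and not in that of Kif3c. GC content was 62%, 58.7%, 57.7% and 59.3% in the order printed, against a median of 53% over all.

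The number of peaks in the first 3 Mb was highest in the libraries with the longest lists, whereas among the shorter lists it did not follow their length. There were 1350, 1572, 1330 and 3251 in sgRosa 1 to 4 and 2471, 2006, 1515 and 1430 in sgNr2f2 1 to 4. The count of sgRosa 4 stood above all others, as did its list of 142509 autosomal peaks against 53799 to 103822 in the remaining libraries. The share of the list was 2.12%, 2.52%, 2.19% and 2.28% in sgRosa 1 to 4 and 2.38%, 2.06%, 2.40% and 2.66% in sgNr2f2 1 to 4, where the windows make up 2.37% of the assessed autosomal length. Neither differed between the groups beyond the spread: the number was 1856 ± 483 (SD, n = 4) in sgNr2f2 and 1876 ± 923 in sgRosa (two-sided exact permutation p = 0.971), and the share 2.37% ± 0.244 and 2.28% ± 0.176 (exact permutation p = 0.543).

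Read depth is unknown, because the lists hold no read totals. Lists reach down to a −log10 p of 2.00, and peaks with a q under 0.05 made up 4.80% to 18.6% of them. Of 10 neuronal marker genes, 6 to 8 had a peak within 5 kb in sgRosa libraries and 6 to 9 in sgNr2f2 libraries. The summed number of peaks at the neuronal genes was 36 to 52 in sgRosa and 27 to 45 in sgNr2f2. Of 4 astrocyte markers 2 to 4 had a peak in both groups, and the summed number of their peaks was 2 to 7 in sgRosa and 7 to 16 in sgNr2f2. The summed peaks were 1 to 8 and 3 to 10 for oligodendrocytes, 1 to 4 and 2 to 5 for microglia, and 0 to 9 and 5 to 7 for vascular cells. Their part in the results below was not tested.

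More peaks of the first 3 Mb were strong, wide and shared than elsewhere, while a difference in density was not detected. Each library's windows were compared with the rest of the same chromosomes, and the 8 within-library values were tested against 0 by a two-sided exact sign-flip permutation test, whose smallest p is 0.00781, adjusted over 6 measures by the Benjamini-Hochberg method. The observed number divided by the number expected from the rest was 0.913, 1.08, 0.921 and 0.961 in sgRosa 1 to 4 and 0.995, 0.878, 1.01 and 1.12 in sgNr2f2 1 to 4. These values lie on both sides of 1, and the mean log2 ratio was -0.03 ± 0.12 (SD, n = 8; exact p = 0.492, adjusted p = 0.492). Density was 32.7 peaks per Mb in the windows and 33.6 expected.

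The share of peaks with a q under 0.05 was higher in the windows in 8 of 8 libraries. It was 23.8%, 10.02%, 14.6% and 9.93% in the windows of sgRosa 1 to 4, against 18.2%, 4.66%, 9.31% and 7.34% in the rest. In sgNr2f2 1 to 4 it was 11.7%, 10.3%, 21.6% and 20.0045%, against 8.18%, 5.81%, 18.5% and 13.1%. The libraries differ widely in level, while the difference kept its sign in each: 4.61 ± 1.46 percentage points (SD, n = 8; exact permutation p = 0.00781, adjusted p = 0.0156).

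Window peaks were also wider and recurred more. The median width was 170.8 bp in the windows and 166.8 bp in the rest, a difference of 3.97 ± 1.53 bp that was positive in 8 of 8 libraries (exact permutation p = 0.00781, adjusted p = 0.0156). No listed peak was narrower than 150 bp, which was also the lower quartile in windows and rest of every library. Both medians thus lie close to the shortest width in the lists. Recurrence, the share of peaks overlapped by at least 1 bp in another library when all lists are cut to their strongest 53799 peaks, was 22.5%, 17.7%, 18.4% and 16.3% in the windows of sgRosa 1 to 4 and 19.1%, 19.7%, 18.4% and 19.4% in those of sgNr2f2 1 to 4. In the rest it lay between 9.21% and 11.3%. No library's windows reached down to that range. The difference was 8.46 ± 1.503 percentage points (SD, n = 8, exact permutation p = 0.00781, adjusted p = 0.0156). Each overlap counts for both libraries in it, so the 8 recurrence values are not independent, whereas the test treats them as such. The same limit holds for every recurrence test below.

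Against the rest, the medians of both strength measures missed the threshold. The median −log10 p was 3.64 in the windows and 3.54 in the rest, higher in 5 of 8 libraries (difference 0.101 ± 0.183; exact permutation p = 0.180, adjusted p = 0.270). The median fold enrichment was 2.65 and 2.63 (difference 0.0144 ± 0.0571; exact permutation p = 0.469, adjusted p = 0.492). The excess sat in the upper tail. Peaks of at least 500 bp made up 0.584% to 1.504% of the members of a library and 0.0962% to 0.151% of the rest.

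**Figure D1:**
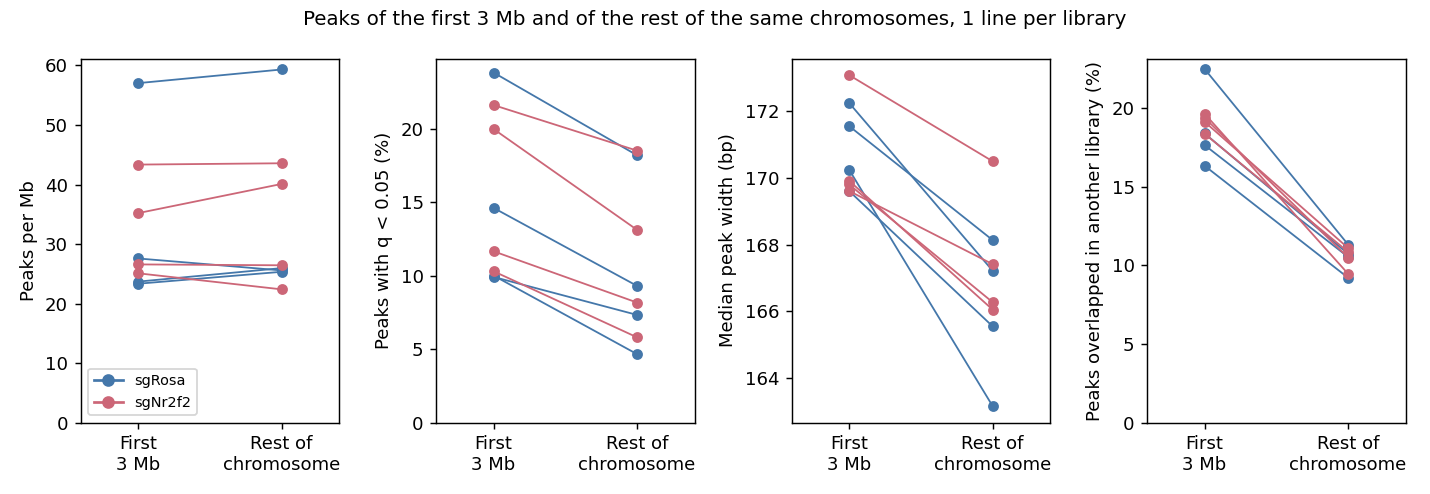
Peaks per Mb, share of peaks with q under 0.05, median peak width in bp and share of peaks overlapped in another library, for the first 3 Mb and the rest of the same chromosomes, with 1 line per library coloured by group; the width axis does not start at 0. Lines of density run in both directions, whereas those of the other 3 measures fall from the first 3 Mb to the rest in all 8 libraries.

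The last 3 Mb of each chromosome, next to the other telomere, served as a second comparison. The windows held fewer peaks than these ends (14925 against 16034 over the 8 libraries), with a log2 ratio of -0.11 ± 0.09 (SD, n = 8) that was below 0 in 7 of 8 libraries (exact permutation p = 0.0156, adjusted p = 0.0234). Without chromosome 14, an alternative added after seeing the data, the log2 ratio was -0.04 (exact permutation p = 0.234). The share with a q under 0.05 was higher in the windows by 3.4996 ± 1.63 points and recurrence by 6.36 ± 1.96 points, each in 8 of 8 libraries (exact permutation p = 0.00781, adjusted p = 0.0234). Without the first 500 kb, also added after seeing the data, both turned and passed the threshold the other way, at -1.44 points (exact permutation p = 0.00781, adjusted p = 0.0234) and -1.74 points (exact permutation p = 0.0156, adjusted p = 0.0312). The median −log10 p was higher by 0.118 ± 0.127 in 7 of 8 libraries (exact permutation p = 0.0156, adjusted p = 0.0234), by 0.0763 without the first 100 kb (exact permutation p = 0.156) and by 0.0158 without the first 500 kb (exact permutation p = 0.648). The median fold enrichment differed by 0.0196 ± 0.0398 (exact permutation p = 0.188). The median width was higher by 2.02 ± 1.96 bp in 7 of 8 (exact permutation p = 0.0312, adjusted p = 0.0375), a call lost without the first 100 kb (0.122 bp, exact permutation p = 0.875), in the first 6 Mb (-0.0362 bp, exact permutation p = 0.969) and without chromosomes 9 and 11 (0.711 bp, exact permutation p = 0.383). It was also lost without any 1 sgRosa library or sgNr2f2 2 (exact permutation p = 0.0625), and after adjustment without sgNr2f2 1 or 4 (adjusted p = 0.0563, exact permutation test).

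The excess of strong peaks lay in the first 0.5 Mb. There 36.8% of peaks had a q under 0.05 (24.7% to 48.1% over libraries), against 9.64% to 12.7% in each other 0.5 Mb bin out to 9 Mb from the first assembled position. Their median width was 187.5 bp, against 163.8 to 168.5 bp in those bins. Recurrence was 52.2% (46.9% to 58.1%), against 8.70% to 12.4%. The number of all peaks was only 1.15 times that expected.

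Counting only peaks with a q under 0.05, each library had more in the windows than expected from the rest of its chromosomes, at 1.57 ± 0.402 times (SD, n = 8; highest in sgRosa 2 at 2.45; exact permutation p = 0.00781). The first 0.5 Mb are given as a description, since they were singled out from the bins just described. The first 0.5 Mb held 138, 103, 112 and 123 of them in sgRosa 1 to 4 and 136, 111, 135 and 133 in sgNr2f2 1 to 4. These numbers are close together although the whole lists are not. They were 4.61 ± 2.04 times the expected number (SD, n = 8; 2.90 to 9.13, highest in sgRosa 2). From 0.5 to 3 Mb the ratio was 0.963 ± 0.0996, above 1 in 2 of 8 libraries. When the first 500 kb were left out, an alternative added after seeing the data, the window's share with a q under 0.05 differed from the rest by -0.329 points (exact permutation p = 0.375), the width difference was -0.142 bp and the recurrence difference 0.360 points (exact permutation p = 0.273).

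**Figure D2:**
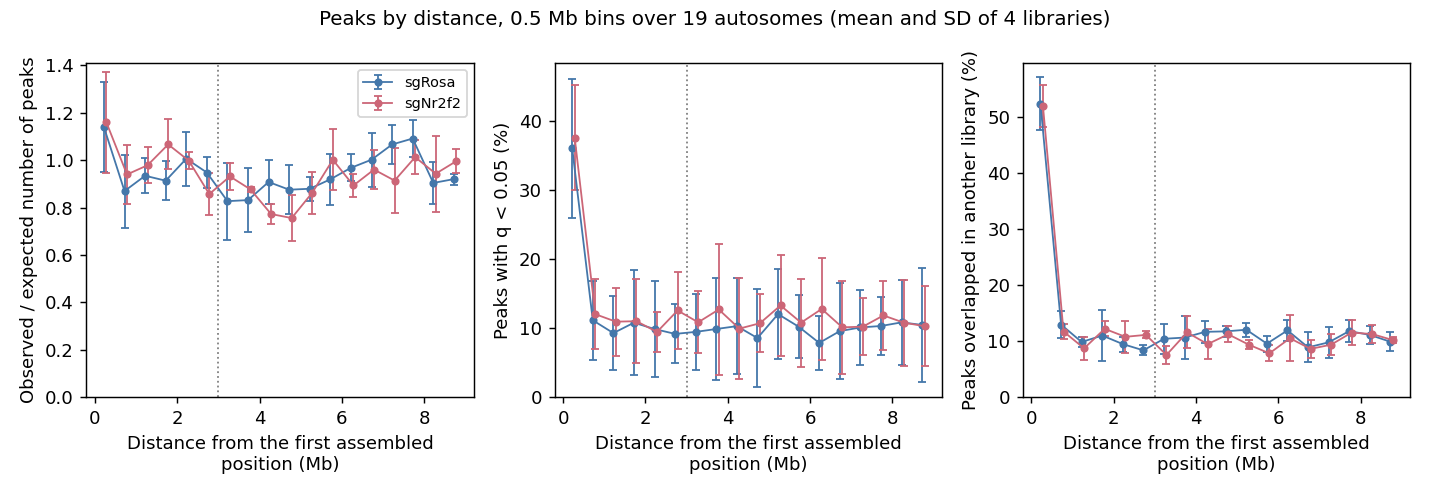
Observed over expected number of peaks, share of peaks with q under 0.05 and share overlapped in another library by distance from the first assembled position in Mb, in 0.5 Mb bins over 19 autosomes, as mean and SD of the 4 libraries of each group; the dotted line marks 3 Mb. As the mean of all 8 libraries, which is not drawn, the first bin of the middle and right panels stands at 36.8% and 52.2%. By the same mean, all later bins stay at or below 12.7%.

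Recurrence was most pronounced among regions found in every library. When overlapping peaks of the equal-length lists were merged, the windows held 8868 of 405149 regions. Of the window's regions, 8246 came from 1 library, 449 from 2, 52 from 3, 60 from 4 to 7 and 61 from all 8. These 61 are 27.4% of the 223 regions found in all 8 libraries on the autosomes, a density of 1.07 per Mb against 0.0690 in the rest, 15.5 times higher. Regions of 1 library were less dense in the windows, at 0.902 times the rest.

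The shared regions crowd the first assembled bases. Of the 61, 22 lay within 50 kb of the first assembled position, 27 within 100 kb, 54 within 250 kb and 58 within 500 kb. Of the 60 regions of 4 to 7 libraries, 53 lay within 500 kb. A shared region was present on 11 of 19 windows, against 105 of 793 (13.2%) other windows of the same length. The largest number in another window was 9, at chr13:117000001-120000000. The sources used here do not say how reads that match several places were treated. What part this has in the place and strength of the shared regions was not tested.

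Chromosomes 9 and 11 held the most, with 21 and 15 of the 61. On chromosome 9, 20 regions stood in a run of 38.4 kb at chr9:2999936-3038289, of which they cover 23.1%. On chromosome 11, 15 regions stood in 99.9 kb at chr11:3100165-3200025. Chromosome 16 held 7, chromosome 4 held 6, chromosomes 6 and 18 held 3 each, chromosome 2 held 2, and chromosomes 3, 8, 12 and 13 held 1 each. Merged widths ran from 177 to 2050 bp with a median of 521 bp.

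**Figure D3:**
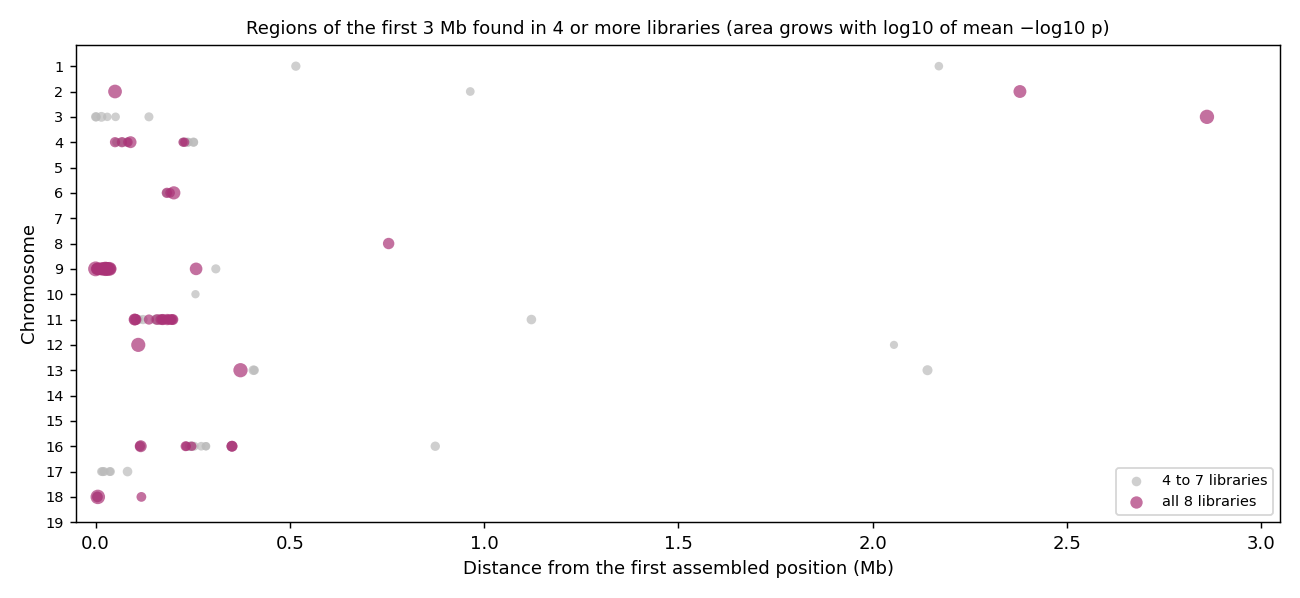
Regions of the first 3 Mb found in 4 to 7 (grey) or all 8 (purple) equal-length lists, by chromosome and distance of the summit from the first assembled position in Mb; point area grows with the log10 of the mean −log10 p. Of the 61 purple points 58 lie within 0.5 Mb, with 21 on chromosome 9 and 15 on chromosome 11.

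Most of the shared regions were outside annotated genes. How often this holds for the shared regions of the rest was not computed, so it is not shown to be particular to the windows. Of 61, 46 lay in no gene of the RefSeq table, 47 were more than 5 kb from a protein-coding gene, and 13 were inside one. Of these 13, 12 lay in Sfi1 on chromosome 11, which encodes a centrin-binding protein of the centrosome, with a mean −log10 p of 6.46 to 26.7. The other, chr2:5379064-5379545, lay in Camk1d, a calcium and calmodulin dependent kinase, with a −log10 p of 103.4, 66.3, 99.4 and 51.0 in sgRosa 1 to 4 and 119.9, 88.3, 105.0 and 97.2 in sgNr2f2 1 to 4. It was lowest in sgRosa 4, and the groups overlapped.

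The strongest member in every library was the first region of chromosome 9, chr9:2999936-3001142, whose summit lies 0.127 kb after the first assembled position and whose edge reaches before it. Its −log10 p was 590.2, 445.4, 610.0 and 493.6 in sgRosa 1 to 4 and 454.9, 478.1, 573.1 and 521.8 in sgNr2f2 1 to 4. It ranked 6th to 9th among the autosomal peaks of a library, and the groups overlapped. The nearest protein-coding gene, Alkbh8, a tRNA-modifying enzyme, was 334089 bp away.

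Next came chr18:3005200-3006470, with ranks of 9 to 15, chr9:3025433-3025772, with 10 to 18, and chr3:5860314-5860894, with 12 to 20. The region on chromosome 3 lies 2861 kb from the first assembled position and is the exception in place. Its −log10 p was 326.7, 278.4, 418.8 and 195.3 in sgRosa 1 to 4 and 401.6, 223.8, 404.8 and 300.1 in sgNr2f2 1 to 4. The lowest 2 values came from different groups, and the groups overlapped.

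Fold enrichment and −log10 p ordered these regions differently. The authors' fold at the summit was 30.2 ± 2.04 (SD, n = 8) for the chromosome 3 region and 30.5 ± 3.28 for chr12:3109800-3110179. It was 14.7 ± 0.855 for the first region of chromosome 9, and only 8.78 ± 0.706, 8.96 ± 0.608, 6.14 ± 0.229, 6.09 ± 0.181 and 7.996 ± 1.38 for the regions of its run that start at 3025433, 3035639, 3026332, 3031936 and 3015211. The lower folds are all in the run on chromosome 9. The remaining regions of the strongest 12 were chr13:3372830-3373706 (fold 20.1 ± 0.679), chr2:3049945-3050465 (27.1 ± 2.32), chr6:3201281-3201677 (23.6 ± 3.11) and the chromosome 18 region (17.5 ± 1.08).

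Members were far more frequent among the strongest peaks than among all peaks. Of the 100 peaks of highest −log10 p in a library, 31.0 ± 1.07 (SD, n = 8; 29 to 32) were in the windows. Of the strongest 300, 70 ± 4.90 were (62 to 78), and of the strongest 1000, 100.5 ± 6.87 (86 to 109).

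**Figure D4:**
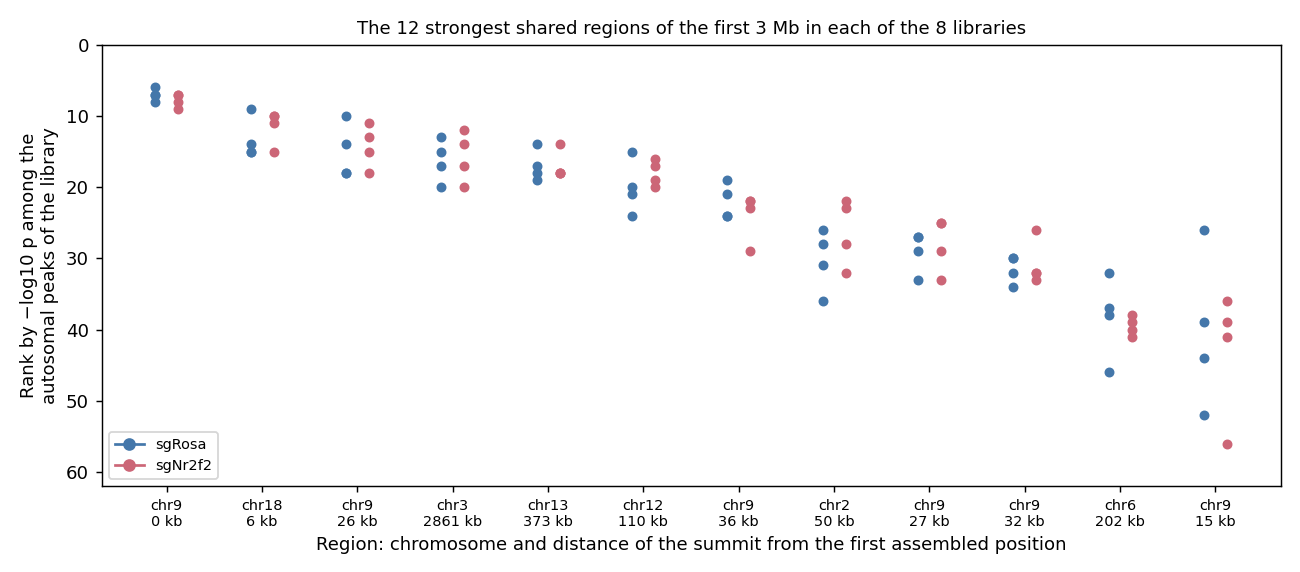
Rank by −log10 p among the autosomal peaks of its library (rank 1 at the top would be the strongest peak) for the 12 strongest shared regions of the first 3 Mb, labelled by chromosome and distance from the first assembled position; 1 point per library, coloured by group. The first region of chromosome 9 ranks 6 to 9 in all 8 libraries, and the points of both groups overlap at each region.

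The coverage of the first 3 Mb varied by chromosome. The ratio of observed to expected peaks was highest on chromosome 16 (1.35 ± 0.286, SD, n = 8), chromosome 11 (1.32 ± 0.163) and chromosome 19 (1.24 ± 0.382). On chromosome 11 it was 1.21, 1.29, 1.52 and 1.13 in sgRosa 1 to 4 and 1.28, 1.41, 1.56 and 1.15 in sgNr2f2 1 to 4, above 1 in 8 of 8 libraries. Chromosome 19 reached its ratio with 0 shared regions. The lowest were chromosome 6 (0.802 ± 0.127), chromosome 15 (0.785 ± 0.197) and chromosome 14.

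The first 3 Mb of chromosome 14 were nearly bare. They held 1 peak in all 8 libraries together, at position 5929517 in sgRosa 4, a ratio of 0.000664. In the other 7 libraries the first summit of the chromosome lay between positions 7703871 and 7815293. The next 3 Mb held 26, 56, 19 and 103 peaks in sgRosa 1 to 4 and 87, 37, 42 and 38 in sgNr2f2 1 to 4, between 0.264 and 0.719 times the expected number. RefSeq places 103 genes in that window, of which 45 are protein-coding, 42 of them predicted genes with a Gm name, and 38 are pseudogenes.

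**Figure D5:**
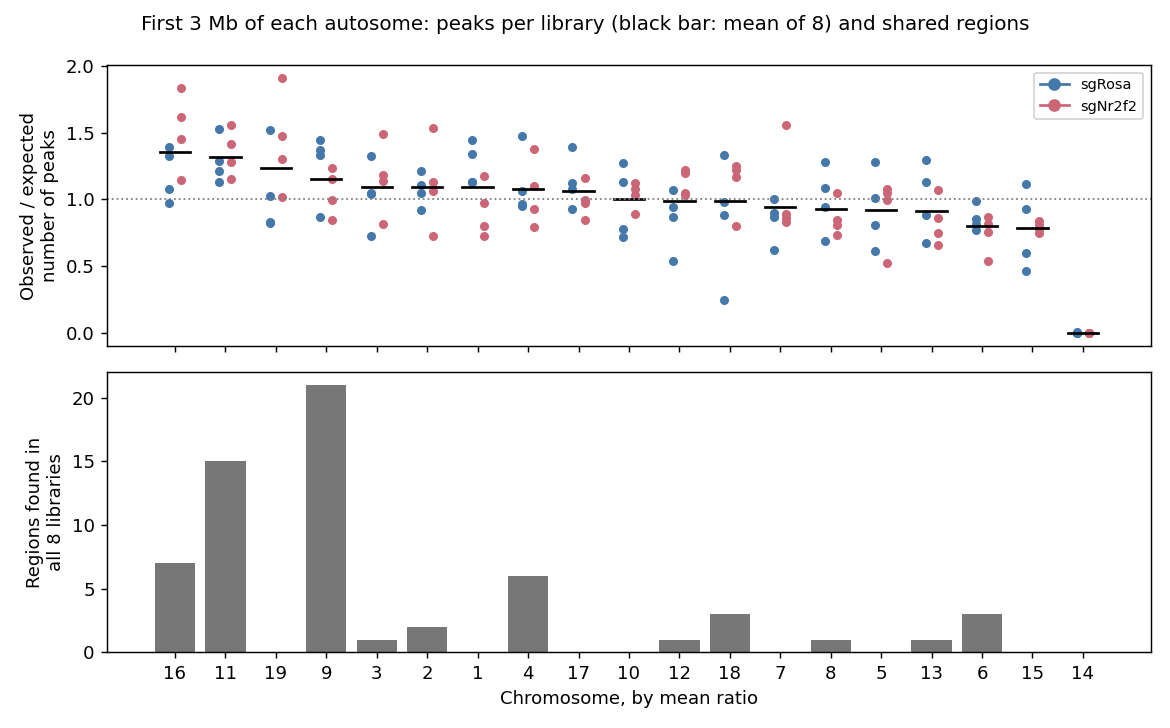
Observed over expected number of peaks in the first 3 Mb of each autosome (upper panel; 1 point per library coloured by group, black bar the mean of 8; the dotted line marks 1) and number of regions found in all 8 libraries (lower panel), with chromosomes ordered by the mean ratio. Chromosomes 9 and 11 carry 21 and 15 shared regions at ratios of 1.16 and 1.32, chromosome 19 carries 0 at 1.24, and chromosome 14 lies at 0.000664.

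The guide against Nr2f2 was compared with the control guide on each of these measures, by two-sided exact permutation over the 70 assignments of libraries to groups, whose smallest p is 0.0286. None of the 6 window-against-rest values differed between the groups after adjustment. The width difference came nearest, at 3.04 ± 0.782 bp in sgNr2f2 and 4.90 ± 1.60 bp in sgRosa (n = 4 each; exact permutation p = 0.0857, adjusted p = 0.514). The log2 density ratio was -0.01 ± 0.14 and -0.05 ± 0.11 (exact permutation p = 0.657), the q share difference 4.49 ± 1.69 and 4.72 ± 1.43 points (p = 0.8286, exact), and the recurrence difference 8.66 ± 1.17 and 8.27 ± 1.95 points (p = 0.743, exact). The number of q-passing peaks in the first 0.5 Mb was 4.18 ± 0.945 times expected in sgNr2f2 and 5.04 ± 2.89 in sgRosa (exact permutation p = 0.686). Of 19 chromosomes, 0 had an exact permutation p under 0.05, and the smallest was 0.0857 (adjusted p = 0.724).

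At the level of regions, the strength of the 61 shared regions was compared by limma on normal scores of their ranks within each library, fitted over all 223 shared regions. With Benjamini-Hochberg adjustment, 0 regions were called in either direction (0% of the 223), and the smallest adjusted p in the windows was 0.559. The 61 divided into 32 with a higher and 29 with a lower score in sgNr2f2. An unadjusted p under 0.05 was found for 4 of 61 (6.56%) beside 14 of all 223 (6.28%), so the share in the windows was near the background.

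Regions of the windows that were complete in 1 group and missing in the other were rare. There was 1 of 8868 window regions for each group, beside 4 of all 405149 regions (0.000987%) for each direction. The windows' share is the higher one, but it rests on 1 region per group. The region chr2:3964436-3964661, 52989 bp from Frmd4a, a scaffold protein gene of cell polarity, was listed in the 4 sgNr2f2 libraries with a −log10 p of 3.54, 6.30, 5.02 and 5.32. In the full lists sgRosa 4 also had a peak there, with a −log10 p of 3.19, so the region then no longer separates the groups. The region chr10:3257147-3257552, inside H60c, a gene for a ligand of the natural killer receptor NKG2D, was listed in sgRosa 1 to 4 with 3.37, 3.33, 4.37 and 5.25 and in no sgNr2f2 library, full lists included. With only peaks of q under 0.05 the count was 0 for both groups.

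The windows hold more protein-coding genes per Mb than the rest. They overlap 610 of 20665 autosomal protein-coding genes, 10.7 per Mb against 8.55 in the rest. A peak in the body or within 1 kb was found in at least 1 equal-length list for 500 of them (82.0%, against 83.7% of other genes), in all 8 for 48 and in none for 110. The share of other genes found in all 8 was not computed, so the 48 have no background. Of 59 predicted genes with a Gm name, 7 had a peak, of which 1 of 42 on chromosome 14 and 6 of 17 on the other chromosomes. Vomeronasal receptor genes, which encode pheromone receptors, had a peak in 2 of 14, zinc finger genes named Zfp in 11 of 12, and olfactory receptor genes in 2 of 2. Genes of these kinds outside the windows were not counted, so the numbers are a description without a background share.

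Sfi1 carried more peaks for its length than any other gene detected in all 8 libraries. It had 21, 27, 26 and 24 peaks in sgRosa 1 to 4 and 30, 27, 27 and 23 in sgNr2f2 1 to 4, or 1 per 358.5 bp. The groups overlapped, at 24.5 ± 2.65 and 26.8 ± 2.87 (n = 4 each). How reads that match several places were treated is not given in the sources used here, so counts in a gene with near-identical copies would be uncertain.

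The next genes by length per peak had few peaks each. Anks3, an ankyrin repeat protein of the primary cilium, had 15 over the 8 libraries, or 1 per 1742 bp. Efr3b, a membrane anchor of a phosphatidylinositol kinase, had 2, 2, 4 and 2 in sgRosa 1 to 4 and 4, 5, 3 and 7 in sgNr2f2 1 to 4, with overlap at 3 to 4. Coro7, a coronin that acts on actin at the Golgi, had 19, and Dnajc27, a small GTPase with a J domain, had 13.

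The other 7 of the 12 named genes were listed in every library as well. Adcy3, the adenylyl cyclase of neuronal cilia, had 24 peaks over the 8 libraries, and Kremen1, a receptor for the Wnt inhibitor Dickkopf, had 19. Ppp6r3, a regulatory subunit of protein phosphatase 6, had 31, Mthfd1l, a mitochondrial enzyme of folate metabolism, 48, Camk1d 96, Klhl29 67 and Osbp2, an oxysterol-binding protein, 36. Each of these genes had overlapping counts in the groups.

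Between the groups, genes were compared in the equal-length lists. Of 610 genes, 16 (2.62%) were detected in at least 3 more sgNr2f2 than sgRosa libraries, beside 2.34% of all autosomal genes. In the other direction there were 7 (1.15%), beside 1.35%. Both shares are near the background. By exact permutation of the number of peaks per gene, 5 of 610 (0.820%) had an unadjusted p under 0.05 with more in sgNr2f2, beside 0.595% of all genes, and 4 (0.656%) with fewer, beside 0.3%. Adjusted over all 20665 genes, the smallest p was 1.

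In the equal-length lists, 4 of 610 genes (0.656%) had a peak in every sgNr2f2 and no sgRosa library, beside 0.266% of all autosomal genes. They are given as a description, since that difference chose them. Counts in the full lists are not given for these genes. Nlrc3, a NOD-like receptor that dampens innate immune signalling, had 1, 3, 2 and 3 peaks in sgNr2f2 1 to 4. Sec14l5, a lipid-binding protein, had 2, 2, 3 and 1. Nlrp12, another NOD-like receptor, and Carns1, the carnosine synthase, each had 1, 1, 1 and 2. Cluap1, an intraflagellar transport protein, and Sgce, the imprinted epsilon-sarcoglycan, were each detected in 4 sgNr2f2 libraries and 1 sgRosa library.

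In the opposite direction there were 2 of 610 (0.328%), beside 0.145%, again in the equal-length lists only. Elavl1, which encodes the RNA-binding protein HuR, had 1, 1, 3 and 2 peaks in sgRosa 1 to 4 and 0 in each sgNr2f2 library. H60c had 3, 1, 2 and 1 against 0. Sdr16c5, a retinol dehydrogenase, Myadm, a membrane protein of myeloid cells, and Zfp865, a zinc finger protein, were each detected in 3 sgRosa libraries and 0 of sgNr2f2. Pon1, a paraoxonase, was detected in 4 and 1.

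The share of peaks at start sites was examined on the 18 chromosomes with promoter entries, a measure added after seeing the data. Averaged over chromosomes, 3.67% of member summits were within 1 kb of a start site, against 3.06% in the rest of the same chromosomes. The difference was 0.609 ± 0.524 points and above 0 in 8 of 8 libraries (exact permutation p = 0.00781); with chromosomes pooled it was 0.532 ± 0.546 points and above 0 in 7 of 8 (exact permutation p = 0.0156). Start sites themselves are denser in the windows, at 16.2 per Mb against 13.5, and 2.63% of window bases lie within 1 kb of one, against 2.30%. How far this density sets the difference was not tested. The chromosome-averaged difference was 0.347 ± 0.416 in sgNr2f2 and 0.872 ± 0.532 in sgRosa (n = 4 each; exact permutation p = 0.200). Of 20 miRNA hairpins in the windows, 2 overlapped a peak, each in 1 library. The share among other hairpins was not computed.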

How the data were processed

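ATAC-seq peak lists of 8 libraries (4 sgRosa, 4 sgNr2f2) were used, grouped by their titles. Coordinates are mm10. Deposited with each peak are a score, a ratio (fold over background), −log10 values of p and of q, and the offset of the summit, all made by the authors. Per the submitters' processing notes, the tools were MACS2 2.2.9.1 and HOMER 4.10, with fastp 0.23.2, DiffBind 3.10.0, Picard, MultiQC 1.11 and FastQC 0.11.9. Not given in the sources used here were the aligner, the handling of repeats and duplicates, and the calling options. The authors' values are not scaled between libraries and served to rank or filter peaks within a list.

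Collapsing intervals to their strongest summit removed 3465 lines. Chromosome ends were taken as the furthest peak end. Density used the full lists and chromosome-matched expectations. Medians and shares were averaged over chromosomes with at least 5 peaks in the window and the compared stretch. Recurrence, regions and gene counts used the strongest 53799 peaks per library. Genes, promoters and miRNAs came from RefSeq tables of GRCm38.p6. Calculations ran in R 4.3.3 with limma 3.58.1 and in Python 3.11.15 with pandas 2.3.3, numpy 2.4.6, matplotlib 3.10.9 and scipy 1.17.1, and were tested on simulated data. Alternatives varied the window, list length, q threshold, collapsing, pooling, chromosomes and libraries. Members and lists were chosen with earlier results of these data known. Named regions were the 12 shared ones of highest mean −log10 p and those exclusive to a group. Named chromosomes were the 3 highest and 3 lowest. Named genes were 12 by number of detecting libraries, ties by bases per peak, and up to 6 per direction by group difference. Read depth is unknown, so no interval or floor was computed.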

Additional observations from a re-analysis of the deposited data

Results flagged for a closer look

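Within groups of 4, 4 values stood apart from the remaining 3 by more than Dixon's 95% limit, which chance exceeds in about 1 of 20 groups. sgRosa 4 had 3251 peaks in the first 3 Mb, against 1330 to 1572 in the other sgRosa libraries. Its share of peaks with a q under 0.05 exceeded that of the rest by 2.59 points, against 5.32 to 5.64. sgRosa 1 had a recurrence difference of 11.2 points, against 7.12 to 7.66. In sgNr2f2 3 the share of summits within 1 kb of a start site exceeded that of the rest by 0.964 points, against 0.0814 to 0.225 in the other sgNr2f2 libraries.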

How the results depend on the processing

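The windows' share with a q under 0.05, width and recurrence stayed above those of the rest, at an exact permutation p under 0.05, in each alternative run except without the first 500 kb, where they were -0.329 points, -0.142 bp and 0.360 points and the median −log10 p difference was -0.000687. Against the last 3 Mb, leaving out the first 500 kb gave 0.0158 for −log10 p, -1.44 points for the q share, -2.09 bp for width and -1.74 points for recurrence, of which the q share and recurrence passed the threshold in this opposite direction after adjustment and the width only before it (adjusted p = 0.0703). The log2 density ratio to the rest was 0.0274 in the first 1 Mb, -0.117 in the first 6 Mb (exact p = 0.0234), 0.00544 with lists of equal length, 0.0102 without collapsing, 0.0478 without chromosome 14 and 0.615 with peaks of q under 0.05 only. Against the last 3 Mb it was -0.0550 in the first 1 Mb, -0.0416 without chromosome 14 and 0.348 with peaks of q under 0.05 only. The −log10 p difference from the rest passed the threshold in the first 1 Mb (1.03), with equal lists (0.133) and with q under 0.05 (2.43), as did that of fold with q under 0.05 (0.107). That of fold in the first 1 Mb (0.0683) passed only before adjustment (exact p = 0.0469, adjusted p = 0.0563). Against the last 3 Mb, fold passed in the first 1 Mb (0.0732). The q share there passed only before adjustment without the first 100 kb (adjusted p = 0.0625). There the −log10 p difference, 0.118 as reported, missed it in the first 6 Mb (0.0502), without the first 100 kb (0.0763), with equal lists (0.0975), pooled over chromosomes (0.149), without chromosome 16, the one of highest density ratio (0.111), and without chromosomes 9 and 11 (0.0624). The width difference missed it without the first 100 kb (0.122), with q under 0.05 (2.24), without chromosome 16 (1.66) and without chromosomes 9 and 11 (0.711), and was -0.0362 in the first 6 Mb.

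Differences between sgNr2f2 and sgRosa that changed sign had a p above the threshold throughout. For −log10 p it was -0.217 in the first 1 Mb. For recurrence it was -1.94 in the first 1 Mb, -0.380 in the first 6 Mb, -4.49 with q under 0.05 and -0.244 without chromosomes 9 and 11. For the q share it was 0.0159 in the first 6 Mb and 0.00873 without chromosome 16. For density it was -0.0744 with q under 0.05. For fold it was 0.00444 without the first 100 kb, 0.0224 with q under 0.05, 0.00135 without collapsing, 0.00859 pooled, 0.000177 without chromosome 16 and 0.00679 without chromosomes 9 and 11. The cause of these changes was not tested. Regions exclusive to sgNr2f2 numbered 0 in full lists, and 0 for either group with q under 0.05. Limma without a trend called 1 region as higher in sgNr2f2, outside the windows.

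Titles share replicate numbers. Over the shared regions, deviations of same-numbered libraries from their group means correlated at 0.124, 0.0115, 0.0667 and -0.193. Such values cannot decide whether the numbers pair the samples, which stays unknown. With the replicate number as a block, the group differences were 0.0439 for density, 0.0423 for −log10 p, -0.000217 for fold, -0.229 for the q share, -1.85 for width and 0.387 for recurrence, with an exact p of 0.125 or more, the smallest 4 pairs can give, and limma called 0 regions in either direction.

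Leaving out each library in turn kept the direction of every comparison with the rest and with the last 3 Mb. The width difference from the last 3 Mb ranged from 1.59 to 2.51 bp and had an exact permutation p of 0.0625 without any 1 of the sgRosa libraries or sgNr2f2 2. The group difference ranged from -0.0128 to 0.105 for density, from -0.0523 to 0.123 for −log10 p, from -0.0255 to 0.0235 for fold, from -1.02 to 0.233 for the q share and from -0.270 to 1.18 for recurrence, with no exact p under 0.05. Regions exclusive to sgNr2f2 numbered 1 to 3, with 3 without sgRosa 1 and 2 without sgRosa 2 or 3 or sgNr2f2 2, 3 or 4, and limma called 0 to 1 region as lower in sgNr2f2, the 1 without sgNr2f2 4 and outside the windows. Regions in all remaining libraries numbered 61 to 64.

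The density per base that is not N was not run, as no genome was used here. Chromosome 14, chromosomes 9 and 11 and the first 500 kb were left out after seeing the data. Lists without read totals leave the precision of single peaks unknown.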
